A study of Mus musculus with 2 samples.

Results

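In all, 9 genes whose products switch off inflammatory signalling were followed in neutrophils exposed to tumor exosomes. They were Irak3, Tollip, Tnfaip3, Tnip1, Socs1, Socs3, Dusp1, Zfp36 and Zc3h12a, a set given by name. All 9 were listed in both expression tables, out of 35522 features in each, and all 9 passed the filter of at least 0.25 RPKM (reads scaled by exon length and by the mapped reads of the library) in both libraries. Cells that were CD11b positive, high for Ly6G and low or negative for Ly6C had been sorted from mouse bone marrow, and the methods of the study give Balb/C mice of 5 to 8 weeks. Both cultures received 10 ng/ml GM-CSF, a growth factor of myeloid cells, in complete RPMI-1640. One culture was given PBS and the other 20 μg/ml of exosomes from sphere-derived cancer stem cells (SDCSCs) of the colon cancer line CT26, each for 3 days. There was 1 library per treatment, and neither pooling of animals nor separate cultures are described, so no difference below can be set against a spread between replicates and no test of the treatment was made.

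Toll-like receptors and the interleukin-1 receptor pass their signal through MyD88 and the IRAK kinases to TRAF6, and from there by ubiquitin chains to the IκB kinases and the MAP kinases. Each step has brakes, several of which the same signal can induce. IRAK3 and Tollip act at the receptor complex, and A20 (Tnfaip3) and ABIN1 (Tnip1) at the ubiquitin chains. DUSP1 acts at the MAP kinases, and tristetraprolin (Zfp36) and Regnase-1 (Zc3h12a) at the cytokine mRNAs. SOCS1 and SOCS3 hold back the JAK kinases that cytokine receptors use, and SOCS3 limits signalling of the G-CSF receptor in neutrophils. Such brakes matter in neutrophils because these cells release large amounts of cytokines and proteases once triggered.

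The libraries held about 66.0 M (PBS) and 79.1 M (exosome) mapped reads, as estimated from the values that stand for a single read. The labelled cell type was checked against fixed marker genes. All 12 neutrophil markers were detected in both libraries, but 9 of them were at least 2-fold lower in the exosome library. The summed RPKM of all 12 was 81576 in PBS and 30265 with exosomes. S100a8 (32823 and 14382 RPKM) and S100a9 (43059 and 13834 RPKM) held most of both sums. Mmp9 stayed within 2-fold at 849 and 608 RPKM, as did Elane (2.64 and 3.31) and Mpo (5.48 and 8.42), which were higher with exosomes. Ly6g itself, which had been used for the sort, stood at 287 and 56.2 RPKM. The 14 monocyte and macrophage markers summed to 283 RPKM in PBS and 681 with exosomes, and none was at 0 in either library. Of the 8 that passed the filter, 5 were at least 2-fold higher. Cd14 (118 and 209 RPKM) and Cd68 (83.9 and 146 RPKM) held most of the PBS sum and stayed within 2-fold, as did Ccr2 (0.5 and 0.88 RPKM). Adgre1, listed as Emr1 and encoding F4/80, had 20.9 RPKM in PBS and 152 with exosomes, and Csf1r, the M-CSF receptor, had 58.1 and 153. C1qc (0.27 and 3.79 RPKM) and Mertk (0.04 and 0.48 RPKM), which mark tissue macrophages, were also higher with exosomes but low in both. The 4 B cell markers summed to 104 and 64.0 RPKM, and the 7 dendritic cell markers to 31.6 and 19.9. The 6 T and NK cell markers summed to 57.8 and 7.32 (Cd3d held most of it), and the 4 eosinophil markers to 10.5 and 5.2. The 4 basophil and mast cell markers summed to 1.79 and 1.64, and the 5 erythroid and megakaryocyte markers to 23.5 and 25.6. The 6 epithelial markers summed to 0.63 and 0.235. No CT26 library was read here, so these low values cannot show whether CT26 RNA was carried over. Krt8 was at 0 in both libraries, and Krt19, Ncr1 and Klf1 were at 0 in PBS and under 0.01 RPKM with exosomes. The part of cell composition in the results below was not tested, and in bulk RNA more cells of a type cannot be told apart from more RNA per cell. In the study, sorted cells had to pass a purity limit and need not have been pure. It also reports higher viability and less apoptosis of neutrophils given these exosomes. The part of survival in the results below was not tested either.

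The feedback genes did not move as one block. A group of 4, Irak3, Tnip1, Socs3 and Zc3h12a, were at least 2-fold higher with exosomes, 1 (Dusp1) was at least 2-fold lower, and 4 (Tnfaip3, Socs1, Tollip and Zfp36) stayed within 2-fold. Among all 9698 genes kept, 31.5% were at least 2-fold higher and 5.62% were at least 2-fold lower. The shares among the 9 genes were 44.4% and 11.1%. With 9 genes and no replicates, these shares were not tested against that background, and after median centring of all genes the background was 16.8% and 13.2%. The median log2 fold change was 0.91 over the 9 genes and 0.53 over all genes kept. The high share of genes up lay mostly among weakly expressed genes. In the highest decile by mean level, which holds Irak3, Tnip1, Tnfaip3, Dusp1 and Zfp36, 10.8% of 970 genes were up and 11.3% were down, and the median log2 fold change was 0.01. The summed RPKM of the 9 genes was 843 in PBS and 1327 with exosomes. Zfp36 and Dusp1 together made up 74.9% of that sum in PBS and 30.5% with exosomes, whereas Irak3 went from 5.24% to 33.2%.

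**Figure D1:**
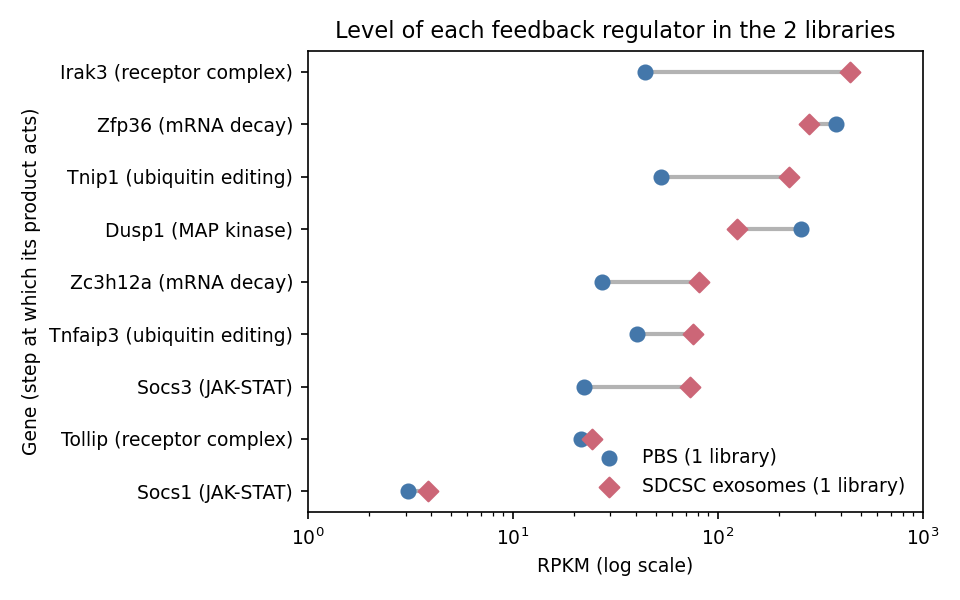
RPKM (log axis) of each of the 9 genes in the PBS library (circle) and the exosome library (diamond), ordered by the exosome value, with no replicates and hence no error bars. Irak3 has the longest line, from 44.2 to 441 RPKM, and only Zfp36 and Dusp1 have the diamond on the left.

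**Figure D2:**
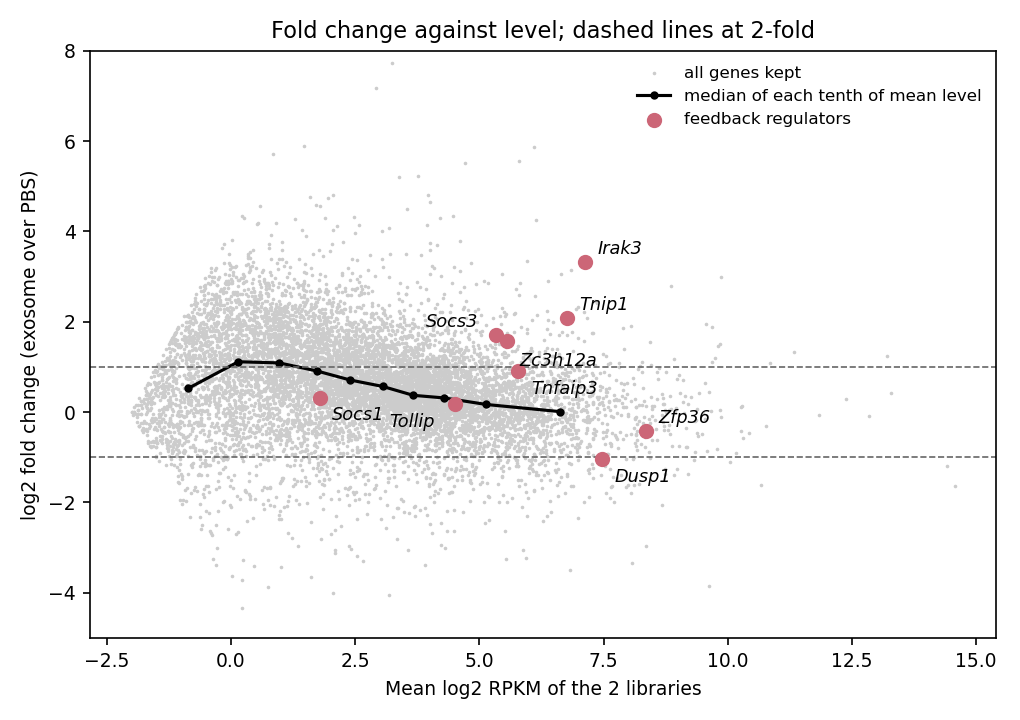
Log2 fold change (exosome over PBS) against mean log2 RPKM for the 9698 genes kept (grey), with the median of each decile of mean level (black line) and the 9 feedback genes (red). Irak3 and Tnip1 lie far above the line, Dusp1 lies below it at the lower 2-fold limit, and Socs1 lies under the median of its own level.

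At the receptor complex the pair of brakes differed. Irak3 (chromosome 10, 120141648 to 120202130, minus strand, GRCm38) encodes IRAK-M, a member of the IRAK family with little or no kinase activity, described in monocytes and macrophages and known to keep the active IRAKs from leaving the receptor. It had 44.2 RPKM in PBS and 441 RPKM with exosomes. This was a 9.97-fold higher level, or 3.32 on the log2 scale (95% counting interval 3.29 to 3.35), and by RPKM the gene went from rank 1147 to rank 74 among all features. Of the genes in its decile of mean level, 99.5% had a smaller log2 fold change. Tollip (chromosome 7, 141874813 to 141918507), an adaptor that binds IRAK1 and receptor tails, stood at 21.5 and 24.4 RPKM, a log2 fold change of 0.18 (0.13 to 0.23). The higher Irak3 level stood beside the higher monocyte and macrophage markers given above (summed RPKM 283 and 681), whose part in it was not tested. The counting intervals rest on estimated reads and cover counting error only, not variation between cultures.

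The active kinases of the family showed no such difference. Irak1 had 14.9 RPKM in PBS and 28.4 with exosomes, and Irak4, the first kinase of the cascade, had 23.4 and 25.5. Irak3 thus stood at 1.89 times the level of Irak4 in PBS and at 17.3 times with exosomes, a relation within each library that no scaling of a library by a constant can alter. Irak2 had 47.3 and 64.8 RPKM. Of the summed RPKM of the 4 IRAK genes, Irak3 held 34.0% in PBS and 78.8% with exosomes. Of the 20 genes kept from a list of 21 genes around this complex, 2 (10%) were at least 2-fold higher and 1 (5%) lower, with a median log2 fold change of 0.20. Those higher were Map3k7, the kinase TAK1, at 5.43 and 13.7 RPKM, and Ticam2, an adaptor of Toll-like receptor 4, at 0.68 and 6.77. The lower one was the decoy receptor gene Il1r2. Myd88 stood at 63.3 and 70 RPKM and Traf6 at 8.82 and 7.35.

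At the step of ubiquitin editing the partner of A20 differed more than A20. Tnip1 (chromosome 11, 54910785 to 54962917) encodes ABIN1, which binds linear ubiquitin chains and brings A20 to them. It had 53.0 RPKM in PBS and 223 with exosomes, 4.2-fold higher (log2 fold change 2.07, counting interval 2.04 to 2.10). Tnfaip3 (chromosome 10, 19000910 to 19015657) had 40.2 and 75.8 RPKM. Its ratio of 1.88 and log2 fold change of 0.91 (0.89 to 0.94) stayed under the 2-fold limit, although 87.4% of the genes in its decile of mean level had a smaller value. Tnip1 was 1.32 times as high as Tnfaip3 in PBS and 2.94 times as high with exosomes. The other ABIN genes were low, with 7.02 and 10.2 RPKM for Tnip2 and 0.14 and 0.49 RPKM for Tnip3.

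A list of 24 genes around A20 was also read, not all of them its partners. Of the 23 kept, 3 (13.0%) were at least 2-fold higher and 1 (4.35%) lower, with a median log2 fold change of 0.36. Otulin, listed under its older symbol Fam105b and encoding the enzyme that cleaves linear ubiquitin chains, had 12.5 RPKM in PBS and 59.9 with exosomes. Birc3 (63.1 and 149 RPKM) encodes the ubiquitin ligase cIAP2, and Tnfrsf1b (136 and 287 RPKM) encodes TNF receptor 2. Ikbkg, which encodes the IκB kinase subunit NEMO, was the lower one at 47.4 and 16.7 RPKM. Of the proteins that form a complex with A20, Tax1bp1 had 85.2 and 75.6 RPKM, Itch 24.1 and 31.1, and Rnf11 109 and 66.6, all within 2-fold.

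The SOCS genes also went separate ways. Socs3 (chromosome 11, 117966079 to 117970047) had 22.4 RPKM in PBS and 73.3 RPKM with exosomes, 3.27-fold higher (log2 fold change 1.71, counting interval 1.66 to 1.76). Socs1 (chromosome 16, 10782240 to 10785536), a brake on interferon receptors, was the lowest of the 9 genes with 3.09 and 3.86 RPKM. Its log2 fold change of 0.32 (0.17 to 0.47) lay below the median of 0.91 for genes of its level. Socs3 exceeded Socs1 7.25-fold in PBS and 19.0-fold with exosomes.

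Stat3, the transcription factor that induces Socs3 and is held back by it, had 64.9 RPKM in PBS and 65.0 with exosomes, so Socs3 went from 0.345 to 1.13 times the level of Stat3. Of the 8 genes of the SOCS family Socs3 held 55.4% of the summed RPKM in PBS and 74.0% with exosomes, and Cish and Socs2, which STAT5 induces, were at or under 0.11 RPKM in both. Of 31 genes kept from 33 of the SOCS family and the JAK-STAT pathway, 8 (25.8%) were at least 2-fold higher and 1 (3.23%) lower, with a median log2 fold change of 0.43. The higher ones included Jak3 (2.37 and 11.8 RPKM), the interleukin-10 receptor chain Il10ra (16.4 and 57.4), Socs6 (1.4 and 3.65) and the interferon-γ receptor chain Ifngr1 (47.6 and 114). Csf3r, the G-CSF receptor on which SOCS3 acts, was the lower one, at 1549 and 715 RPKM.

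Dusp1 was the one gene of the 9 that passed the lower limit. It encodes MKP-1, a nuclear phosphatase that switches off p38 and JNK, and lies on chromosome 17 (26505590 to 26562128). This GENCODE span reaches far upstream of the RefSeq start site used below. Its estimated reads and interval rest on the longest GENCODE transcript, 2313 bases, and not on the span. That length may not be the one the authors used. It had 254 RPKM in PBS and 124 RPKM with exosomes, a log2 fold change of -1.04 (counting interval -1.06 to -1.01) and a ratio of 0.488, close to the limit of 0.5. When both libraries were rescaled to the same sum (TPM), its value was -0.99 and the limit was missed. Mapk14, the gene of its substrate p38α, had 86.6 and 107 RPKM. Dusp1 stood at 2.93 times the level of Mapk14 in PBS and at 1.16 times with exosomes.

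A paralogue differed the other way. Dusp16 encodes MKP-7, a phosphatase of JNK and p38 that stays mostly in the cytoplasm, and had 13.5 RPKM in PBS and 97.6 with exosomes. Dusp1 held 51.4% of the summed RPKM of 12 DUSP genes in PBS and 33.3% with exosomes, and Dusp16 held 2.73% and 26.2%. Dusp6, a phosphatase of ERK, had 188 and 110 RPKM. Of 23 genes kept from 27 of the DUSP family and the MAP kinase cascade, 6 (26.1%) were at least 2-fold higher and 1 (4.35%) lower, with a median log2 fold change of 0.48. Dusp2 (8.58 and 18.4 RPKM), Map3k8 (12.2 and 31.3 RPKM), which encodes the kinase TPL2, and Mapkapk2 (133 and 277 RPKM), which encodes the kinase MK2, were among the higher ones. Mapk13, the gene of p38δ, was the lower one at 34.7 and 12.4 RPKM.

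At the step of mRNA decay the pair of brakes differed too. Zc3h12a (chromosome 4, 125118423 to 125127840) encodes the endoribonuclease Regnase-1, which cuts stem-loops in cytokine mRNAs. It had 27.3 RPKM in PBS and 81.5 RPKM with exosomes, 2.98-fold higher (log2 fold change 1.58, counting interval 1.53 to 1.62). Zfp36 (chromosome 7, 28376784 to 28380253) encodes tristetraprolin, which binds AU-rich elements and recruits the CCR4-NOT deadenylase. It was the highest of the 9 genes in PBS at 377 RPKM and had 280 RPKM with exosomes, a log2 fold change of -0.43 (-0.44 to -0.41) that stayed within 2-fold.

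Within the tristetraprolin family the make-up shifted. Zfp36l1 had 8.32 RPKM in PBS and 72.0 with exosomes, whereas Zfp36l2 had 354 and 113. Zfp36, Zfp36l1 and Zfp36l2 held 51.0%, 1.12% and 47.9% of the family's summed RPKM in PBS and 60.3%, 15.5% and 24.2% with exosomes, and that sum went from 740 to 465 RPKM. In the Regnase family Zc3h12c (8.01 and 46.0 RPKM) and Zc3h12d (3.25 and 25.7 RPKM) were higher alongside Zc3h12a, and the summed RPKM went from 38.6 to 153. Of 23 genes kept from 25 of mRNA decay, 7 (30.4%) were at least 2-fold higher and 1 (4.35%, Zfp36l2) lower, with a median log2 fold change of 0.66. Dcp2, the decapping enzyme, had 1.42 and 5.01 RPKM. The families were set side by side after their values had been seen. Zfp36l2, Csf3r, Fos, Ticam2, Nfkbia, Klf4 and those genes of the lists within 2-fold that are not fixed partners were also named after that.

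**Figure D3:**
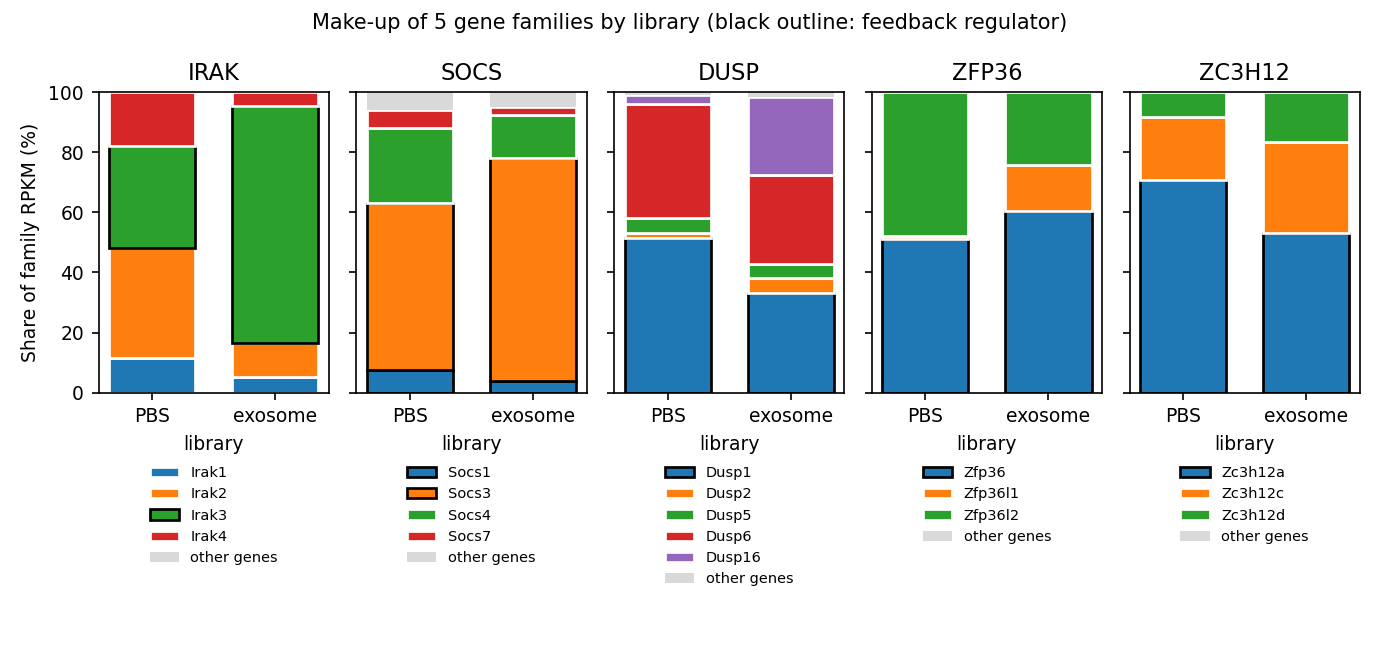
Share (%) of each gene in the summed RPKM of its family in the PBS and the exosome library, for the IRAK, SOCS, DUSP, ZFP36 and ZC3H12 families; black outlines mark the feedback regulators and genes under 4% in both libraries are pooled as other genes. Irak3 takes 34.0% and 78.8% of its family, and Dusp16 widens from 2.73% to 26.2% while Dusp1 narrows from 51.4% to 33.3%.

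The mRNAs listed as known targets of these decay factors, not all of them cytokine mRNAs, were not uniformly lower or higher. Of 18 listed targets 13 were kept, of which 4 (30.8%) were at least 2-fold higher and 1 (7.69%) lower, with a median log2 fold change of 0.34. Tnf had 72.1 RPKM in PBS and 225 with exosomes, and Zfp36 went from 5.24 to 1.25 times the level of Tnf. Csf3, the gene of G-CSF, had 4.07 and 18.1 RPKM, Ccl3 had 320 and 726, and Il1b had 1268 and 2678. Fos, which is not a cytokine gene, was the lower one at 393 and 196 RPKM. Ptgs2, not a cytokine gene either, had 73.7 and 47.5, and Cxcl2 stood at 367 and 347. Il6, a main target of Regnase-1, was under the filter, at 0.24 and 0.1 RPKM.

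A further list held 24 genes described as feedback regulators, not all of them brakes on NF-κB, Toll-like receptor or nucleic acid sensor signalling. Of the 21 kept, 5 (23.8%) were at least 2-fold higher and 1 (4.76%) lower, with a median log2 fold change of 0.33. Usp18, which removes ISG15 and restrains the type I interferon receptor, had 5.33 and 36.4 RPKM, Trim30a had 13.5 and 46.0, and Nfkbib, which encodes IκBβ, had 6.65 and 15.8. The others that were higher were Nfkbia, which encodes IκBα, at 211 and 455 RPKM, and Klf4 at 0.58 and 4.36. Atf3, a transcription factor that represses cytokine genes, was the lower one at 55.6 and 18.5 RPKM. Over all 7 lists, 35 of 154 genes kept were at least 2-fold higher and 7 lower (22.7% and 4.55%), beside 31.5% and 5.62% of all genes kept. After the median log2 fold change of all genes kept was subtracted, 15 were higher and 22 lower, so the direction of that balance rests on the scaling between the libraries.

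**Figure D4:**
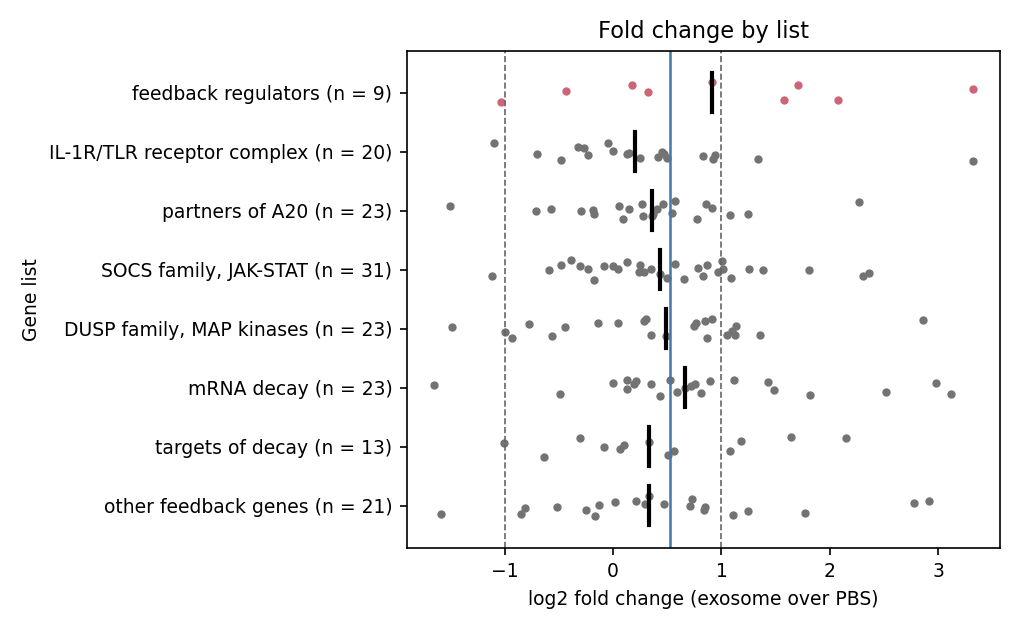
Log2 fold change (exosome over PBS) of each gene kept, for the 9 feedback regulators (red) and the 7 lists around them (grey), with the median of each list (black bar), the median of all genes kept (blue line, 0.53) and the 2-fold limits (dashed). The feedback regulators have a median of 0.91, and the medians of the lists lie between 0.20 (receptor complex) and 0.66 (mRNA decay).

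Sequences upstream of the 9 genes were examined for the sites of transcription factors known to act in these pathways. RefSeq promoters (GRCm38.p6), from 250 bases before to 50 bases after a start site, were found for all 9 genes, 11 promoters in total since Irak3 and Tnfaip3 have 2 starts each. These 4 motifs were searched on both strands: GGNNTTTCC for NF-κB, TTCNNNGAA for STAT factors, TGACGTCA for CREB (the CRE) and TGANTCA for AP-1. The NF-κB motif was found for 1 of 9 genes and in 5.82% of 32851 promoters of all genes. One of the Tnfaip3 promoters held 2 copies of it, which start 24 and 12 bases before the start site and do not overlap, and an AP-1 motif 136 bases before it. The STAT motif was found for 3 of 9 genes (Socs3, Tnip1 and Zfp36) and in 8.3% of all promoters. In Socs3 it starts 154 bases, in Tnip1 199 bases and in Zfp36 17 bases before the start site. The CRE was found in Dusp1, 143 bases before the start site, and in 1.79% of all promoters, and the AP-1 motif in Tnfaip3 and in 7.81%. Among the 9173 promoters of genes kept, the shares were 6.45% for the NF-κB motif, 6.85% for the STAT motif, 3.24% for the CRE and 5.09% for the AP-1 motif. None of the 4 motifs was in these windows of Irak3, Tollip, Socs1 or Zc3h12a, which says only that these letters are not there. Other forms of the sites were not searched. The Tnip1 window, for example, holds GGGAATTCCC, which resembles the NF-κB motif but does not match it and was not counted. Of the 4 genes at least 2-fold higher with exosomes, Socs3 and Tnip1 had a STAT match, and Irak3 and Zc3h12a had no match. Tnfaip3, with 2 NF-κB matches, and Zfp36, with a STAT match, stayed within 2-fold, and Dusp1, with the CRE, was lower. Whether the motifs bear on the levels was not tested. A match is not a bound site. The promoters of 3 genes that differ in both motif and fold change are shown, with the matches in capitals.
Tnfaip3 promoter, chr10:19015361-19015660, minus strand: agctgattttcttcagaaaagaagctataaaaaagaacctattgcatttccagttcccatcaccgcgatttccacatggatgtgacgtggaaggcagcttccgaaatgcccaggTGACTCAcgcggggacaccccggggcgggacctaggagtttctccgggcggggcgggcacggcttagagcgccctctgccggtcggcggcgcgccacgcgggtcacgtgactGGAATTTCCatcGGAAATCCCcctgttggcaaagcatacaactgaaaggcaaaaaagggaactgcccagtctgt
Socs3 promoter, chr11:117969317-117969616, minus strand: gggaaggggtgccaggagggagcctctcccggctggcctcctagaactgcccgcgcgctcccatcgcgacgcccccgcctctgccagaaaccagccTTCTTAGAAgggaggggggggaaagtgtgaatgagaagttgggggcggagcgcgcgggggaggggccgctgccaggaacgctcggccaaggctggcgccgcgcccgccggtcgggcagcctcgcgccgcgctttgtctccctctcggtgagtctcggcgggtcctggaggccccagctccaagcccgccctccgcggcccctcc
Dusp1 promoter, chr17:26508423-26508722, minus strand: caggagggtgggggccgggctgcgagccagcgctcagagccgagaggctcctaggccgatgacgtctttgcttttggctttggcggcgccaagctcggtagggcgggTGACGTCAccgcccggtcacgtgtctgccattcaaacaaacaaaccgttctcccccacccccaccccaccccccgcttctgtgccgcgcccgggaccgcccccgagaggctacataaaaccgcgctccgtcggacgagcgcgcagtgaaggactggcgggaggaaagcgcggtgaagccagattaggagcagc

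The mRNAs of some feedback genes carry the element that tristetraprolin itself binds. In the 3′ untranslated region of the longest coding transcript (GENCODE M21), the core TATTTAT was found for 5 of the 9 genes, against 29.6% of 8818 genes kept that had such a region, and 2 of the 9 had 3 or more copies, against 3.79%. Dusp1 and Zfp36, the pair with lower RPKM in the exosome library, had 3 copies each, in 690 and 774 bases. Socs3 and Tnfaip3 had 2 each and Tollip 1, while Irak3, Tnip1, Zc3h12a and Socs1 had none. Of the genes at least 2-fold higher, Socs3 was thus the one with copies. Other genes with copies differed in both directions. Zfp36l1 and Il1b also had 3 each and were 8.66-fold and 2.11-fold higher with exosomes, and Tnf had 8 and was 3.12-fold higher. Zfp36l2 had 3 and was 3.14-fold lower, Fos had 2 and was 2.01-fold lower, and Ptgs2 had 6 and was 1.55-fold lower. Whether the copies bear on the levels was not tested. Of the 18 listed targets, 15 had a copy, a share that the choice of the list as targets of decay favours. Longer regions hold more copies by length alone. The 30-base windows richest in the core are shown for 3 feedback genes and for Tnf, with each core in capitals.
Zfp36: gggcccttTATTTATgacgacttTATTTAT
Dusp1: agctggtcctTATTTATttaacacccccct
Socs3: tttgcacataTATTTATATTTATactcaga
Tnf: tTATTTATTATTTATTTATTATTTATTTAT

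Since 1 library per treatment leaves only the scaling to be varied, each fold change was recomputed under 9 other settings of scaling, filter or pseudocount. Irak3 ranged from 2.78 to 3.37, Tnip1 from 1.53 to 2.12, Socs3 from 1.17 to 1.76 and Zc3h12a from 1.04 to 1.62 on the log2 scale, and these 4 stayed past 2-fold. Of the 9 settings, 2 change only which genes are kept and so could not alter these values. Tnfaip3 (0.37 to 0.96) and Zfp36 (-0.97 to -0.38) kept their sign and stayed within 2-fold. The small differences of Tollip (-0.36 to 0.23) and Socs1 (-0.59 to 0.37) turned negative in 3 of the 9. Dusp1 ranged from -1.58 to -0.99.

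**Figure D5:**
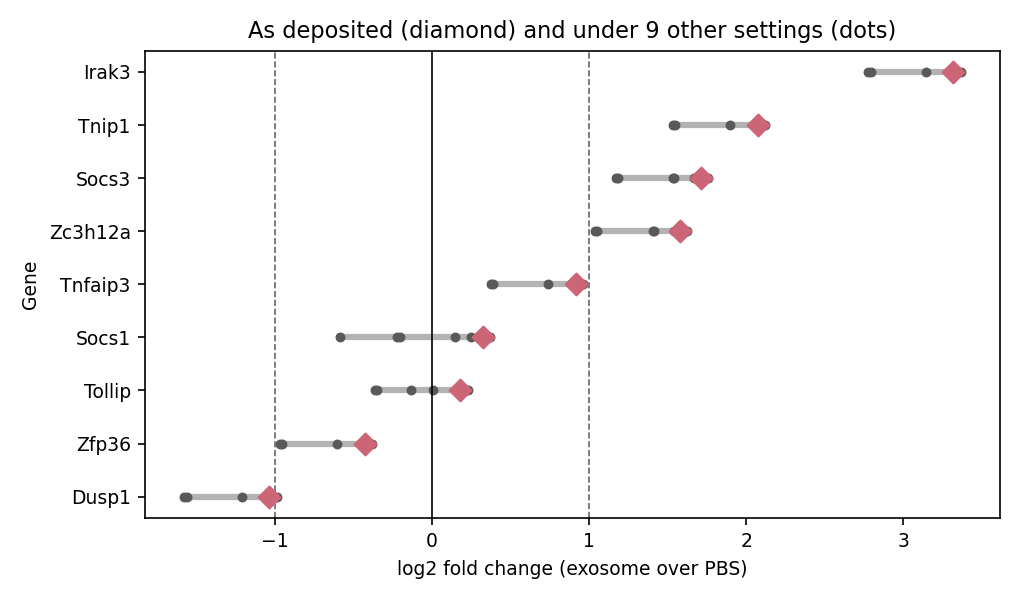
Log2 fold change (exosome over PBS) of each gene as deposited (diamond) and under 9 other settings (dots, with a grey line over their range), with the 2-fold limits dashed. The 4 uppermost genes keep all dots right of the upper limit, and Tollip and Socs1 cross 0.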

How the data were processed

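Reads of neutrophil mRNA libraries (TruSeq) were trimmed for base quality and analysed in CLC Genomics Workbench by the authors, who deposited 1 RPKM value per gene and sample. The build is mm10 per the labels. The gene annotation, how multiply mapped reads were counted and whether the libraries were scaled to each other are not given in the sources used here. Commas within large values were removed from the values.

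Genes with at least 0.25 RPKM in both libraries were kept, and ratios of at least 2 or at most 0.5 were called, as the study did. Fold changes are log2 of exosome over PBS RPKM, with no pseudocount. Mapped reads were estimated from values below 0.01 RPKM that stand for a single read, with the longest GENCODE M21 transcript of each symbol as length. From them came exact Clopper-Pearson intervals (95%), which cover counting error only. At the median length of 3339 bases, 3 reads are 0.0136 RPKM in PBS and 0.0114 with exosomes.

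With 1 library per group no test was made. Named genes were the 9 members, fixed partners, and up to 4 genes per list with the largest change among those at 1 RPKM or more in both libraries and past 2-fold. The members and lists were chosen with earlier results of these data known. The calling step was tested on simulated data. Python 3.11.15, pandas 2.3.3 and scipy 1.17.1 were used. The alternatives were median centring, TPM, a trimmed mean of log ratios (30% of ratios and 5% of levels left out at each end), centring within deciles of mean level, leaving out S100a8 and S100a9, at least 1 RPKM in both libraries, no filter, a call limit of 4, a pseudocount of 1, and a filter of 0.25 RPKM in either library with 0.25 added to each value.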

Additional observations from a re-analysis of the deposited data

How the results depend on the processing

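The number of feedback genes at least 2-fold higher was 4 under all settings except a ratio of 4, which left 2 (Irak3 and Tnip1) and none lower, a count of 0. Rescaling to TPM also brought the number lower to 0, since Dusp1 then missed the limit at -0.99. Over the 9 genes the median fold change (log2) was 0.39 under median centring, 0.37 after subtraction of a trimmed mean, 0.96 as TPM and 0.74 without S100a8 and S100a9. For the lists around them, median centring and the trimmed mean each gave 15 genes higher and 22 lower, centring within deciles of mean level gave 23 and 12, and a ratio of 4 gave 11 and 0. Among all genes kept, the shares higher and lower were 16.8% and 13.2% under median centring and 13.3% and 13.4% with centring within deciles. None of the 5 called among the 9 genes changed sign. The depth limits no value of the 9 genes, the lowest of which rests on about 593 estimated reads (Socs1 in PBS). No paired analysis was possible because each group has 1 library, and for the same reason no library could be left out.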

Other observations

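The count of TATTTAT cores was also set against the fold change over the genes kept with a 3′ untranslated region. The median log2 fold change was 0.56 for 6209 genes without a core, 0.49 for 1698 genes with 1, 0.45 for 577 with 2, and 0.40 for 334 with 3 or more. The median length of the region was 804 bases without a core and 3274 bases with 3 or more, so the classes differ in length too. Within the highest decile of mean level the medians were 0.05, -0.02, -0.21 and -0.00061 for 690, 134, 31 and 27 genes. In that decile, 12.3%, 5.97%, 6.45% and 14.8% were at least 2-fold higher and 11.4%, 11.2%, 19.4% and 7.41% at least 2-fold lower. Over all genes kept with such a region, the shares higher were 33.4%, 27.4%, 28.6% and 26.3%. The shares lower were 5.52%, 6.07%, 5.72% and 5.99%. Dusp1 and Zfp36, both in the highest decile and with 3 cores each, stood at -1.04 and -0.43. Whether the cores bear on the levels was not tested.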
